A study of Mus musculus with 8 samples.

Results

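The 58 genes described here act on broken DNA and on stalled replication forks, and they were read from the 54146 rows of a gene count table made from 8 RNA-seq libraries. The members were fixed by symbol. All 58 had a row, and 50 of these rows, with a summed count of at least 10 over the 8 libraries, were kept. Rows whose exons share at least 50 bases with exons of a member on the opposite strand were added, which gave 21 rows over 18 members, all of them kept. Together 51 members had a kept row of either kind. Of the 50 kept rows of members, 26 passed the filter on low counts and entered the tests, as did 19 of the 21 opposite rows.

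The cells were olaparib-resistant ID8 cells (ID8-OR), an ovarian cancer line of mouse origin grown in culture, and this resistance was shared by all 4 groups. Cells received for 72 hours either DMSO, the solvent control, olaparib, an inhibitor of PARP enzymes, EZM8266, an inhibitor of the histone methyltransferases EHMT1 and EHMT2, or olaparib with EZM8266, called the combination here. Each group had 2 libraries of ribosome-depleted total RNA. Doses and the way resistance was obtained are not given in the sources used here, and the labels do not say whether the 2 libraries of a group were separate cultures. The p-values therefore cover the scatter of these libraries only, and that scatter may be technical. In bulk RNA, fewer cells with a transcript and less of it per cell cannot be told apart. The treatment label of combination replicate 2 spells the inhibitor with another last digit. Its title places it in the combination. Sample numbers in the file labels are 33 to 36 for the libraries with EZM8266 and 41 to 44 for those without. The labels do not say whether these numbers mark a batch. Any such batch cannot be told apart from EZM8266 in comparisons of libraries with it against libraries without it.

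A double-strand break can be joined end to end by the Ku proteins, DNA-PKcs and ligase IV, or copied from a sister chromatid by homologous recombination, in which the MRN complex and CtIP trim the ends and BRCA1, PALB2 and BRCA2 act in the steps that follow. 53BP1, RIF1 and REV7 limit that trimming, the Fanconi proteins handle crosslinks between strands, and ATR with its partners guards stalled forks. PARP1 and PARP2 mark breaks with ADP-ribose. Cells without BRCA1 or BRCA2 are known for their sensitivity to olaparib, and restored recombination, loss of resection limiters and fork protection are known routes to resistance.

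What a row counts decides how it can be read. The authors' table was counted with strand setting 1, per the file headers, in which the first read must lie on the strand of the gene. The library kit is of a type whose first read is the reverse complement of the RNA. A row named after a gene therefore holds fragments from the strand opposite to it, and fragments of that gene's own RNA are counted mainly where another gene's exons lie on the other strand. A small share of fragments on the wrong strand, measured below, enters a gene's own row as well. The protein-coding rows with no exon on the other strand had a median sum of 4 counts over the 8 libraries (16787 rows), and those with an overlap of at least 50 bases a median of 48 (4686 rows). The 2 readings are kept apart below. A member row gives the strand opposite to the member, and an opposite row gives the strand of the member, over the exons of the opposite gene.

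The sequences below are shown because they are coding exons of members whose fragments fall under another gene's name in this table. Each lies wholly within an exon of the opposite row, on the GRCm38 (mm10) build, read 5′ to 3′ on the member's strand from a GENCODE M21 transcript. Capitals mark the exon shared with the opposite row and lower case marks the 15 neighbouring bases of the spliced transcript on each side. Exons 42, 43 and 44 of Atr (chr9:95942586-95942736, chr9:95945088-95945244 and chr9:95945344-95945497, plus strand) lie in the antisense row Gm16794, and exon 37 of Fanci (chr7:79449073-79449180, plus strand) lies in an exon of Polg.
Atr exon 42: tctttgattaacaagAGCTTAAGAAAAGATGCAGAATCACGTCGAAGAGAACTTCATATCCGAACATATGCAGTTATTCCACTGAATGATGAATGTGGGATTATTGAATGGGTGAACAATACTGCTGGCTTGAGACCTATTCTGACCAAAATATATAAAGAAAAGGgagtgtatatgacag
Atr exon 43: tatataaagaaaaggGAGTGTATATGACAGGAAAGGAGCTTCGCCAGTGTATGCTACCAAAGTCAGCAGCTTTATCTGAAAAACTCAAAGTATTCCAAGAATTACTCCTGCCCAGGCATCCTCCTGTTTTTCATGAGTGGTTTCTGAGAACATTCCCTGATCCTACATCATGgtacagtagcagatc
Atr exon 44: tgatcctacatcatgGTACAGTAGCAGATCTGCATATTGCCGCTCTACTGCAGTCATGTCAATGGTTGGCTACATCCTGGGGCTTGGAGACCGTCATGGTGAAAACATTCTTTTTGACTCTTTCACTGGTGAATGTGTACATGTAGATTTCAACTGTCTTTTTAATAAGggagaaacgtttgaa
Fanci exon 37: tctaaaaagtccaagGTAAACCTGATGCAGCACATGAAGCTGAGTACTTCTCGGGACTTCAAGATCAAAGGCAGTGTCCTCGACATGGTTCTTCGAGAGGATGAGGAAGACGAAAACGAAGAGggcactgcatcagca

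Shared exon bases are a small portion of most opposite rows. In the long noncoding row Gm26625, 6.86% of the row's bases lie in exons of Ezh2 and 93.1% in its introns, so fragments of unspliced Ezh2 RNA can fall there as well. In Gm16794, 11.3% of bases lie in Atr exons, 57.4% in Atr introns and 31.4% outside Atr, where the row also lies over Xrn1. Polg shares 8.57% of its bases with Fanci exons and holds 27.8% in Fanci introns. Of the 21 opposite rows, 10 meet the member tail to tail, 6 head to head, and 5 lie within the member. From which bases of a row its fragments came was not measured.

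The sums of the 58 member rows ran from 2 counts (Fancg) to 10811 (Trp53bp1), with a median of 51. The 18 members with an overlap of at least 50 bases held 91.1% of all counts in member rows, with a median sum of 261. The 37 members with no exon on the other strand held 7.65%, with a median of 37 and a highest sum of 315 in Mus81. The 3 members with a shorter overlap were Brca2 (41 bases with Gm42529), Parp3 (20 bases with Rrp9) and Xrcc3 (12 bases with Klc1). Below the minimum of 10 were Fancg with 2 counts, Rad51b with 5, Chek2, Xrcc2, Fancb and Lig4 with 7 each, Rad51c with 8 and Palb2 with 9. Just inside it were Dna2 with 10, Polq with 12, and Blm and Prkdc with 13 each.

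Assigned counts were few for a transcriptome. They came to 973382 to 1680974 per library from 19743299 to 30329847 fragments, of which 4.54% to 5.4% were assigned to a row. A sum of 3 counts, taken as the limit of detection, corresponds to 1.78 to 3.08 CPM (counts per 1000000 counts of the library), for counting error only. Of the 9 epithelial markers, the Krt18, Krt19 and Wt1 rows held 10 to 58 counts per library, Krt8 6 to 23 with 196 to 362 in the row opposite it, and Pax8 3 to 47. Msln held 2 to 9, Upk3b 0 to 7, and Krt7 and Cdh1 0 to 1 each. The rows of Cd3e, Lyz2 and Adgre1, of leukocytes, were at 0 in all 8 libraries, Ptprc held 0 to 2, Pecam1, of endothelium, 0 to 4, and Cdh5 and Kdr 0 to 2. Of the fibroblast markers, the Col1a1 row held 42 to 235, Col1a2 2 to 10, Dcn 1 to 4 and Pdgfra 0 to 2. In DMSO replicate 1 and olaparib replicate 2 the row Gm10800 held 23746 and 22517 counts, against 1182 to 4277 in the other 6 libraries. Member calls were made with and without this pair.

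**Figure D1:**
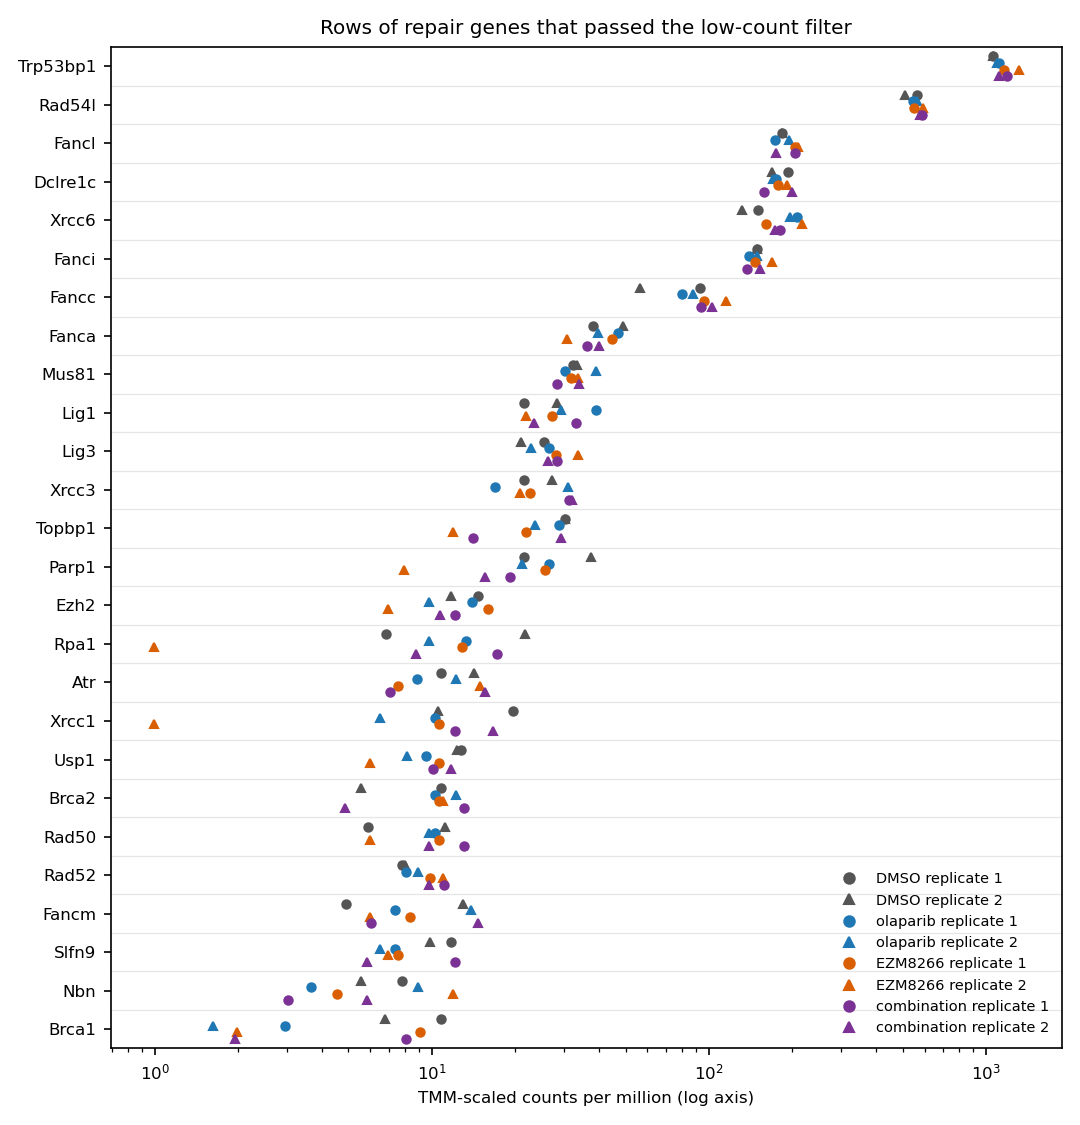
TMM-scaled CPM (log axis) of the 26 tested rows of repair genes, each point 1 library, with colour for the group and shape for the replicate. Trp53bp1 and Rad54l stand above all others in every library, and the low rows of Rpa1, Xrcc1 and Parp1 have their lowest point in EZM8266 replicate 2.

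Levels below are CPM scaled with the TMM method, not divided by length. The TMM factors ran from 0.86 in olaparib replicate 1 to 1.085 in combination replicate 2, so narrow orders between libraries can depend on this scaling. They rank rows, and comparisons between genes are given per kilobase of exon. Among resection limiters, the Trp53bp1 row (gene of 53BP1, chromosome 2) was the highest of all member rows, with 1056 and 1055 CPM in DMSO, 1110 and 1091 in olaparib, 1160 and 1312 in EZM8266, and 1190 and 1111 in the combination. In scaled CPM the lowest library with EZM8266 lay just above the highest without it. With counts divided by library totals alone, these ranges overlapped. The row shares 2130 bases with Tubgcp4, a subunit of the gamma-tubulin ring, and the fragments lie on the strand of Tubgcp4. The reverse reading, the Tubgcp4 row on the strand of Trp53bp1, held 152.8 and 139.6 CPM in DMSO, 139 and 167.5 in olaparib, 136.2 and 127.3 in EZM8266, and 139 and 149.1 in the combination. In scaled CPM the EZM8266 pair was the lowest, below every other library, and the other 3 groups overlapped. With counts divided by library totals alone the EZM8266 pair was not the lowest. The Tubgcp4 row also lies over Zscan29, and 69.5% of its bases lie outside Trp53bp1. Rif1 and Mad2l2 (REV7) have no exon opposite and their rows summed to 42 and 40 counts.

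Among the recombination mediators, Rad54l, a DNA-dependent motor protein of the recombination pathway, had the second highest row. It held 563.1 and 509.5 CPM in DMSO, 542.9 and 564.3 in olaparib, 550 and 589.8 in EZM8266, and 588.2 and 578.9 in the combination. In scaled CPM both combination libraries lay above both DMSO libraries, but not with counts divided by library totals alone. The fragments lie on the strand of Lrrc41, a leucine-rich repeat protein gene, which shares 1184 bases. The Lrrc41 row, on the strand of Rad54l, held 73.45 and 74.72 CPM in DMSO, 69.89 and 86.2 in olaparib, 92.3 and 65.65 in EZM8266, and 78.56 and 79.92 in the combination. In scaled CPM its EZM8266 pair held the highest and the lowest of the 8 values. With counts divided by library totals alone, olaparib replicate 1 was the lowest. Per kilobase of exon the mean level of the Rad54l row was 72.8 CPM, that of the Trp53bp1 row 80.2 and that of the Lrrc41 row 20.9.

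The BRCA genes themselves were barely read. Brca1, which directs breaks to recombination, has no exon opposite, and its row held 11 and 11 counts in DMSO, 4 and 2 in olaparib, 12 and 2 in EZM8266, and 8 and 2 in the combination. The olaparib pair lay below the DMSO pair, and the other 2 groups each held 1 library at 2 counts. The Brca2 row, of a core recombination mediator, held 11 and 9 counts in DMSO, 14 and 15 in olaparib, 14 and 11 in EZM8266, and 13 and 5 in the combination. Neither gene has an opposite row of at least 50 shared bases. Gm42529, an antisense row within the span of Brca2 that shares 41 exon bases and so falls outside the rule, held 82 to 133 counts per library. Palb2, their bridging partner, has a pseudogene, Gm16326, within it, whose row held 2 to 6 counts per library. The rows of Rad51b, Rad51c, Rad51d and Xrcc2 summed to 5, 8, 14 and 7 counts, and Xrcc3 to 242.

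Among the ADP-ribose enzymes, Parp1, the main target of olaparib, was the highest. Its row, with no exon opposite, held 22 and 61 counts in DMSO, 36 and 26 in olaparib, 34 and 8 in EZM8266, and 19 and 16 in the combination. In CPM these are 21.55 and 37.67, 26.48 and 21.14, 25.72 and 7.96, and 19.14 and 15.59. Both combination libraries lay below all DMSO and olaparib libraries, and the EZM8266 pair spanned them. The Parp2 row held 3 and 5 counts in DMSO, 4 and 9 in olaparib, 7 and 6 in EZM8266, and 3 and 1 in the combination. Parp3 and Parg, the enzyme that removes ADP-ribose chains, summed to 17 and 28 counts.

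In the Fanconi group 7 of 12 rows were tested and 6 members had opposite rows. The Fancl row, of the ubiquitin ligase subunit of the Fanconi core, held 183.1 and 182.8 CPM in DMSO, 173.6 and 194.3 in olaparib, 205 and 208.9 in EZM8266, and 204.5 and 174.5 in the combination. The EZM8266 pair lay above all other libraries. It reads the strand of Vrk2, a kinase gene, and the Vrk2 row on the strand of Fancl held 164.5 and 135.2 CPM in DMSO, 175.8 and 133.4 in olaparib, 174 and 174.1 in EZM8266, and 184.3 and 155.9 in the combination. Its DMSO and olaparib pairs were wide and overlapped, and in scaled CPM the EZM8266 pair lay within the olaparib range. With counts divided by library totals alone the EZM8266 pair lay outside that range. The Vrk2 row also lies over the row Gm6899.

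Fanci encodes the partner of FANCD2 that the core ubiquitinates. Its row, on the strand of Polg, the mitochondrial DNA polymerase, held 148.9 and 148.8 CPM in DMSO, 139 and 149.6 in olaparib, 146.8 and 169.1 in EZM8266, and 137 and 153 in the combination. The Polg row, which takes in the Fanci exon shown above, held 128.3 and 121.7 CPM in DMSO, 115.5 and 122.8 in olaparib, 126.3 and 152.2 in EZM8266, and 153.1 and 123.8 in the combination. In both readings EZM8266 replicate 2 was the highest or nearly the highest library. The Fancd2 row, on the strand of Fancd2os, held 2 to 5 counts per library. The Fancd2os row, on the strand of Fancd2, overlaps the 3′ end of Fancd2 and has 81.1% of its bases outside it. It held 58.76 and 59.9 CPM in DMSO, 82.4 and 71.56 in olaparib, 66.58 and 61.67 in EZM8266, and 60.43 and 80.9 in the combination. In scaled CPM all 6 treated libraries lay above both DMSO libraries in Fancd2os, by a margin of 60.43 against 59.9. This order did not hold with counts divided by library totals alone, and the share of all rows in this order was not measured.

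Fancc and Fanca encode subunits of the core complex. The Fancc row, over Gm16133 and 2010111I01Rik, held 93.04 and 56.19 CPM in DMSO, 80.19 and 87.82 in olaparib, 96.09 and 115.4 in EZM8266, and 93.67 and 102.3 in the combination. In scaled CPM every library with EZM8266 lay above every library without it, by a narrow margin over DMSO replicate 1, while DMSO replicate 2 was the lowest. The Fanca row held 38.19 and 48.78 CPM in DMSO, 47.08 and 39.85 in olaparib, 44.64 and 30.83 in EZM8266, and 36.26 and 39.96 in the combination. Its opposite row Zfp276, a zinc finger gene that also lies over Vps9d1, held 54.84 and 69.78 CPM in DMSO, 66.95 and 74 in olaparib, 86.25 and 93.5 in EZM8266, and 66.48 and 75.05 in the combination. The EZM8266 pair was the highest, and the combination was not apart from olaparib alone. Mus81, a nuclease that cuts joint molecules, has no exon opposite and held 32.32 and 33.35 CPM in DMSO, 30.16 and 39.03 in olaparib, 31.78 and 33.82 in EZM8266, and 28.2 and 34.11 in the combination, with all groups overlapping.

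In end joining, the Xrcc6 row (Ku70, which binds broken ends) held 150.8 and 131.5 CPM in DMSO, 207.5 and 196 in olaparib, 161.2 and 216.8 in EZM8266, and 180.3 and 173.5 in the combination. All 6 treated libraries lay above both DMSO libraries, and the share of all rows in this order was not measured. The row shares 344 bases with Desi1, a small protease gene that lies within the span of Xrcc6, and its fragments lie on the strand of Desi1. The Desi1 row, on the strand of Xrcc6, held 4 to 18 counts per library. The Dclre1c row (Artemis, a nuclease that opens hairpin ends) held 192.9 and 169.2 CPM in DMSO, 175.1 and 170.8 in olaparib, 177 and 192 in EZM8266, and 158.1 and 198.8 in the combination. The EZM8266 pair lay above the olaparib pair, and DMSO and the combination overlapped both. The row shares 357 bases with Suv39h2, which encodes another H3K9 methyltransferase. Xrcc5 (Ku80), Prkdc, Xrcc4, Lig4 and Polq summed to 26, 13, 28, 7 and 12 counts.

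**Figure D2:**
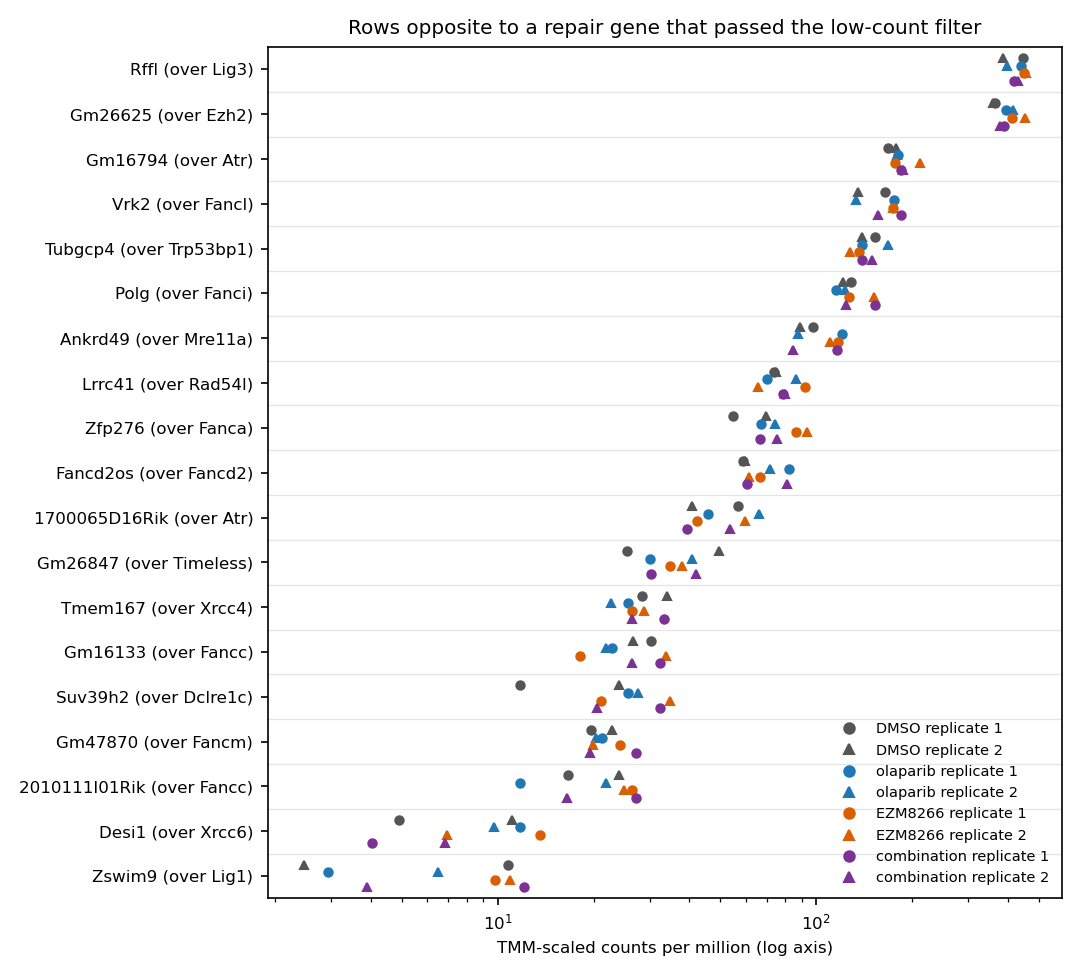
TMM-scaled CPM (log axis) of the 19 tested rows that lie opposite a repair gene, named with the gene they lie over, each point 1 library. Rffl and Gm26625 are the highest in all 8 libraries, and the 8 points of most rows lie close together without a split by group.

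The strand of Lig3, a ligase that seals nicks in the nucleus and mitochondria, had the highest opposite row by CPM not divided by length, that of Rffl, a ubiquitin ligase gene with 1826 shared bases. The Rffl row held 446.6 and 386.6 CPM in DMSO, 439.9 and 396 in olaparib, 447.9 and 454.6 in EZM8266, and 418 and 427.9 in the combination. The ranges of DMSO, olaparib and the combination overlapped, and the EZM8266 pair lay just above. The Lig3 row itself held 25.46 and 21 CPM in DMSO, 26.48 and 22.77 in olaparib, 27.99 and 33.82 in EZM8266, and 28.2 and 26.32 in the combination. The row of Lig1, the replicative ligase, held 21.55 and 28.41 CPM in DMSO, 38.99 and 29.27 in olaparib, 27.24 and 21.88 in EZM8266, and 33.24 and 23.39 in the combination. The olaparib pair of the Lig1 row lay above the DMSO pair. That row shares 247 bases with Zswim9, and its fragments lie on the strand of Zswim9. The Zswim9 row, on the strand of Lig1, held 10.77 and 2.47 CPM in DMSO and 2.943 and 6.505 in olaparib, so the olaparib pair lay within the DMSO range. The Xrcc1 row, of the nick repair scaffold, summed to 103 counts.

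Ezh2 is the catalytic subunit of the Polycomb complex that methylates H3K27. Its strand, through Gm26625, held 362.4 and 358.8 CPM in DMSO, 395.1 and 413.9 in olaparib, 410.1 and 450.6 in EZM8266, and 387.8 and 378.2 in the combination. In scaled CPM all 6 treated libraries lay above both DMSO libraries, but not with counts divided by library totals alone. The share of all rows in this order was not measured. The Ezh2 row itself held 7 to 21 counts per library. Per kilobase of row Gm26625 had the highest mean level of all 71 kept rows, 155.5 CPM.

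The strand of Atr, the kinase that responds to stalled forks, was read through Gm16794 toward the 3′ end of the gene, with 167.5 and 177.8 CPM in DMSO, 180.2 and 178.9 in olaparib, 176.3 and 211.9 in EZM8266, and 184.3 and 187.1 in the combination. Except for EZM8266 replicate 2 the libraries lay between 167.5 and 187.1. The row 1700065D16Rik, head to head with Atr at its start, held 39 to 81 counts per library. Topbp1, the activator of ATR, held 31 and 49 counts in DMSO, 39 and 29 in olaparib, 29 and 12 in EZM8266, and 14 and 30 in the combination. Atm, Chek1 and Wee1 summed to 50, 30 and 49 counts.

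Mre11a encodes the nuclease of the MRN complex. The row head to head with it, Ankrd49, has 2.94% of its bases in Mre11a exons and 96.1% outside Mre11a, and where in the row its fragments lie was not measured. It held 97.94 and 88.92 CPM in DMSO, 120.7 and 87.82 in olaparib, 117.3 and 110.4 in EZM8266, and 115.8 and 84.79 in the combination. The EZM8266 pair lay above DMSO, and the olaparib and combination pairs each spanned it. The other sensing and resection rows, Rbbp8 (CtIP), Rad50, Nbn, Exo1, Dna2 and Blm, have no exon opposite and summed to 10 to 93 counts. Slfn9, a Schlafen gene, summed to 81 counts, Rpa1 to 116, Rpa2 to 16 and Timeless to 59.

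**Figure D3:**
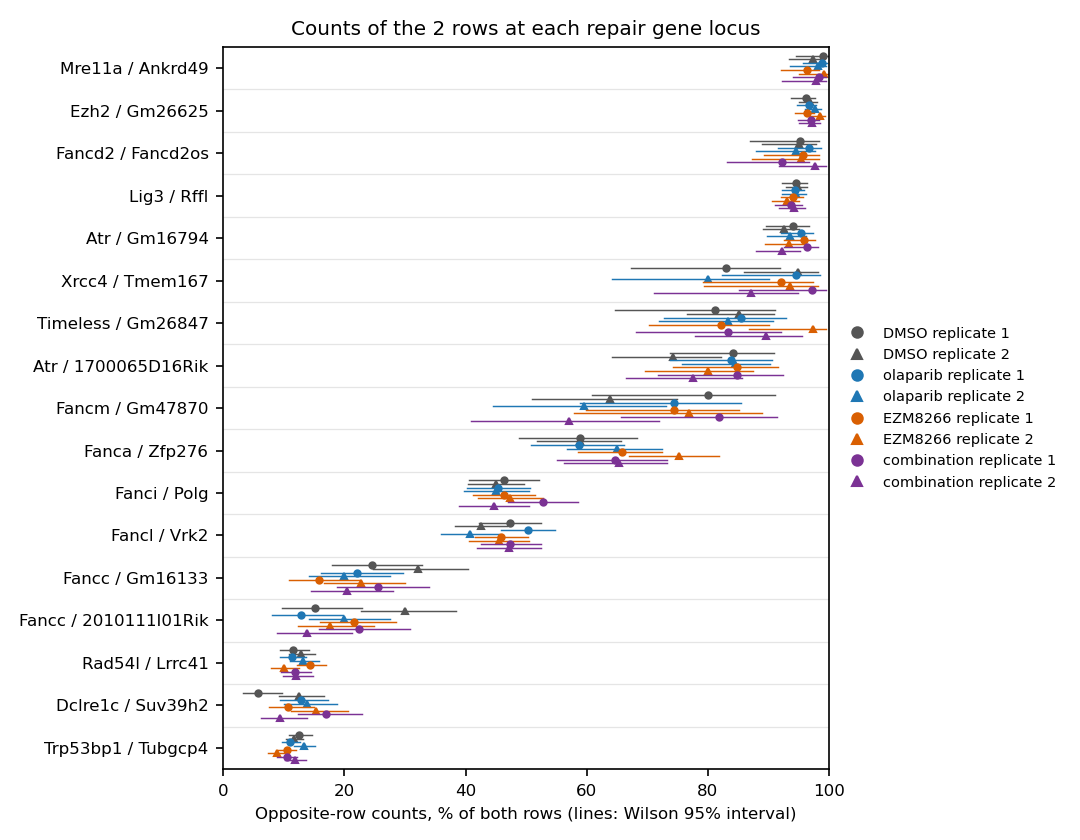
Share of the counts of both rows at a locus that fell in the opposite row, with 1 point per library and its Wilson 95% interval, for the 17 pairs whose opposite row held at least 100 counts. Shares run from 98% at Mre11a with Ankrd49 to 11.3% at Trp53bp1 with Tubgcp4 over all libraries. At Fanca with Zfp276 the EZM8266 pair is the highest, and the interval of EZM8266 replicate 1 overlaps those of the other groups.

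At a locus read from both sides, the share of counts in the opposite row differed more between loci than between libraries, as the plot of counts of both rows shows. It was 94.2% at Lig3 with Rffl over all libraries, from 93.1% to 94.8% between libraries, and 97% at Ezh2 with Gm26625 (96.1% to 98.5%). It was 11.3% at Trp53bp1 with Tubgcp4 (8.85% to 13.3%), 12.3% at Rad54l with Lrrc41 (10% to 14.4%) and 12.1% at Dclre1c with Suv39h2 (5.74% to 16.9%). Fanci with Polg and Fancl with Vrk2 were near balance, at 46.5% and 45.8%. At Fancc with Gm16133 it was 22.8% (15.9% to 32.1%). At Fanca with Zfp276 it was 63.8%, with 65.9% and 75.2% in EZM8266 above 58.7% to 65.3% in the other 6 libraries. The 95% interval of EZM8266 replicate 1 (58.6% to 72.5%) lay within that of combination replicate 2 (56.3% to 73.2%). Each share depends on the lengths of both rows and is no ratio of RNA levels.

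The tests asked whether a treatment changed any of these rows, with edgeR's quasi-likelihood test over all 6379 rows that passed the filter and Benjamini-Hochberg adjustment. No row of either reading was called at an adjusted p under 0.05 in any of the 8 comparisons by edgeR, and DESeq2 also called 0. Olaparib against DMSO called 0% of all rows tested and 0 of the 45 member and opposite rows, of which 2 (4.44%) had an unadjusted p under 0.05, against 1.83% of all rows. EZM8266 against DMSO called 0.204% of all rows (13) and 0 of the 45, with 4 (8.89%) under the unadjusted 0.05, against 5.72% of all rows. The combination called 0.219% (14) against DMSO, 0.0941% (6) against olaparib and 0% against EZM8266. In each of these 0 of the 45 were called and 0 had an unadjusted p under 0.05, against 4.89%, 3.81% and 1.54% of all rows. These comparisons share control libraries. At background rates this low, 0 calls among 45 rows says nothing particular to repair genes.

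Over all 4 libraries with EZM8266 against the 4 without, 0.658% of all rows (42) were called and 0 of the 45, with 1 under the unadjusted 0.05 against 6.77% of all rows. This contrast coincides with the split in sample numbers given above. The members' median log2 fold change was 0.00 over the 26 member rows and 0.11 over the 19 opposite rows, beside -0.02 for all rows tested. Of the 26 member rows 13 were higher and 13 lower, and of the opposite rows 14 were higher and 5 lower. For olaparib over both backgrounds 0% of all rows and 0 of the 45 were called, with 0 under the unadjusted 0.05 (1.69% of all rows) and medians of 0.00 and -0.01. The interaction of both drugs called 0% of all rows and 0 of the 45, with 1 under the unadjusted 0.05 (1.61% of all rows).

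**Figure D4:**
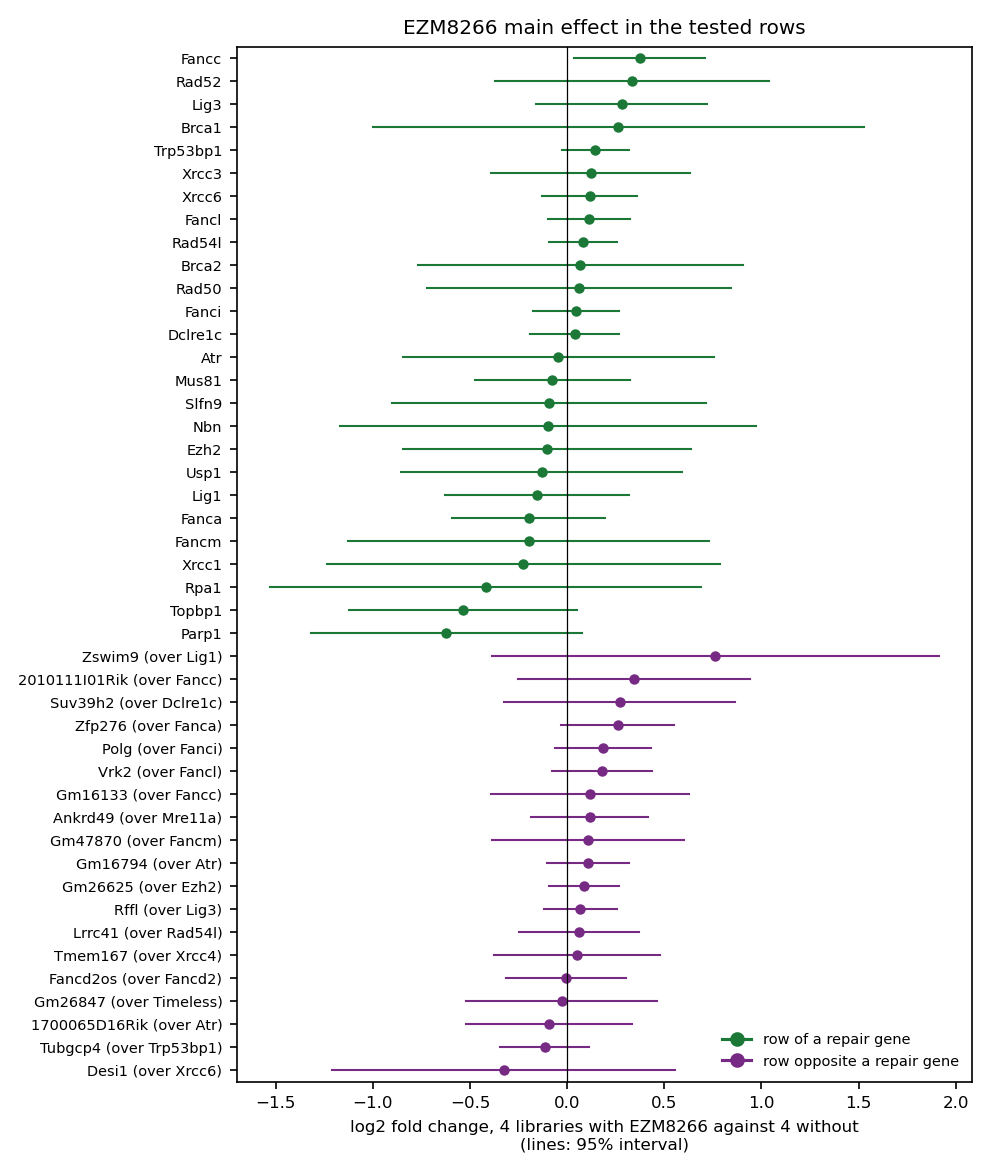
Log2 fold change of the 4 libraries with EZM8266 against the 4 without, with 95% intervals, for the 26 tested rows of repair genes and the 19 tested opposite rows. All intervals but that of the Fancc row include 0, and the intervals of low rows such as Brca1 are the widest.

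What size of change the data leave possible differs by member. For EZM8266 over both backgrounds the 95% interval lay within 1 log2 unit of 0 for 35 of 45 rows and within 0.5 for 17. It ran from -0.12 to 0.26 for Rffl (strand of Lig3), from -0.09 to 0.27 for Gm26625 (strand of Ezh2), from -0.11 to 0.32 for Gm16794 (strand of Atr) and from -0.35 to 0.11 for Tubgcp4 (strand of Trp53bp1). These intervals are for whole rows, and the part of their counts that came from the member's RNA was not measured. The Brca1 row had -0.997 to 1.53 and the Brca2 row -0.77 to 0.91, so a change of about that size was not detectable at this depth. For the Parp1 row the log2 fold change was -0.62 ± 0.32 (SE, n = 4 against 4), its interval from -1.32 to 0.07, and the edgeR adjusted p 0.798. For olaparib over both backgrounds 37 of 45 intervals lay within 1 log2 unit and 20 within 0.5.

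The rows that came nearest to a call were the following, each with 2 libraries a group. In olaparib against DMSO the Xrcc6 row differed by 0.52 ± 0.16 log2 units (SE), with an unadjusted edgeR p of 0.00628 and an adjusted p of 0.999. In EZM8266 against DMSO it had 0.42 ± 0.16 (edgeR adjusted p = 0.797), and in the combination 0.33 ± 0.16 (edgeR adjusted p = 0.973). Without EZM8266 replicate 2 the EZM8266 value was 0.20 and the interaction term -0.38. Its interaction term was -0.61 ± 0.23 (unadjusted edgeR p of 0.0185, adjusted p of 1). The 3 differences from DMSO share the DMSO pair, and the fragments are on the strand of Desi1.

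Zfp276, on the strand of Fanca, had 0.51 ± 0.19 in EZM8266 against DMSO (unadjusted edgeR p of 0.0181, adjusted p of 0.797) and 0.17 ± 0.19 in the combination (adjusted p = 0.99). Without DMSO replicate 1 and olaparib replicate 2, the pair rich in Gm10800, the EZM8266 value was 0.36. The Fancc row had 0.52 ± 0.22 in EZM8266 against DMSO (unadjusted edgeR p of 0.034, adjusted p of 0.825) and 0.37 ± 0.16 over both backgrounds (unadjusted edgeR p of 0.0327, adjusted p of 0.65). Without DMSO replicate 2, its lowest library, these were 0.18 and 0.20, and without DMSO replicate 1 they were 0.91 and 0.57. With the wrong-strand share of each library as a covariate, added after seeing the data, the second was 0.23. The Brca1 row had -1.84 ± 0.84 in olaparib against DMSO (unadjusted edgeR p of 0.0464, adjusted p of 0.999), from 4 and 2 counts against 11 and 11. Without the Gm10800-rich pair it was -1.16. None of these passed the test.

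In scaled CPM the ranges of all 4 libraries with EZM8266 and all 4 without did not overlap in 3 of the 45 tested rows (6.67%). These were the Trp53bp1, Fancc and Rad52 rows, all higher with EZM8266. The Trp53bp1 and Fancc ranges overlapped when counts were divided by library totals alone. Among all tested rows 3.32% were higher in this way and 2.02% lower. The Rad52 row held 7.84 and 8.03 CPM in DMSO, 8.09 and 8.95 in olaparib, 9.84 and 10.94 in EZM8266, and 11.08 and 9.75 in the combination. Its log2 fold change was 0.33 ± 0.33 (SE) with an edgeR adjusted p of 0.906.

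The summed level of the members with no exon opposite was lowest in 1 library. Summed over the 37 such members, the level was 238 and 256.9 CPM in DMSO, 217.8 and 206.5 in olaparib, 219.4 and 151.2 in EZM8266, and 230.7 and 213.4 in the combination. EZM8266 replicate 2 was the lowest. There the Parp1 row held 8 counts and the Rpa1 and Xrcc1 rows 1 each. Of the 11 tested rows of this class, 5 had their lowest level in that library (Topbp1, Parp1, Rpa1, Xrcc1 and Usp1), while Nbn had its highest there, at 11.94 CPM. A measure of fragments on the wrong strand, the counts of the Rmrp row as a percentage of those of Rmrp and Ccdc107 together, which read opposite strands of 1 locus, was lowest in the same library, at 1.04%, against 1.21% to 1.68% in the other 7.

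**Figure D5:**
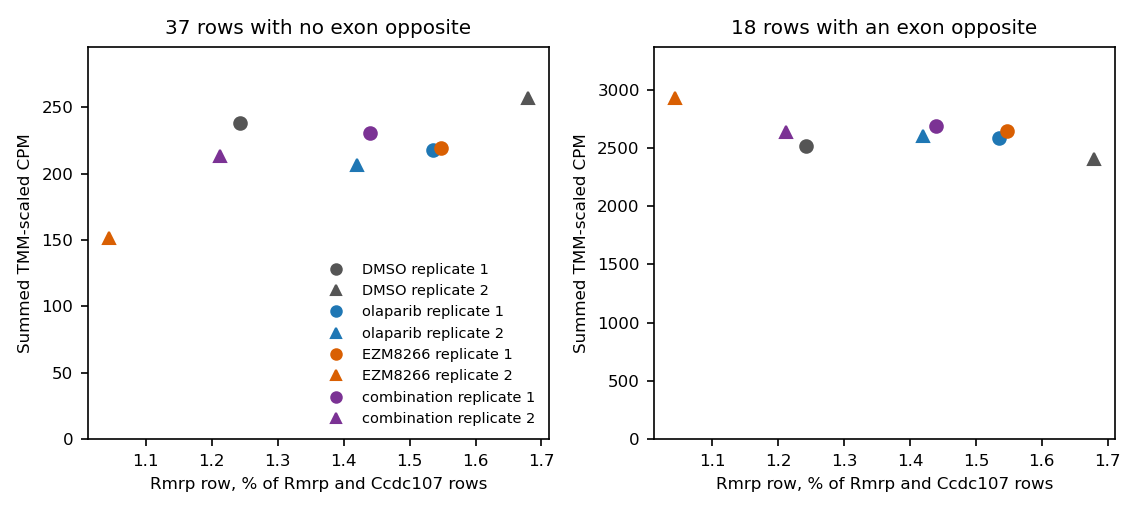
Summed TMM-scaled CPM of member rows against the Rmrp percentage of the Rmrp and Ccdc107 counts, 1 point per library. On the left, the 37 rows with no exon opposite, EZM8266 replicate 2 is lowest on both axes. On the right, the 18 rows with an overlap, it is lowest on the x axis and highest on the y axis.

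Across the 8 libraries this share and the summed level of the 37 rows had a Pearson r of 0.725 (exact permutation p = 0.0372, adjusted p = 0.0946 over 4 relations) and a Spearman rho of 0.643 (exact permutation p = 0.0962, adjusted p = 0.128). Without EZM8266 replicate 2 and DMSO replicate 2 r was -0.221, so the relation rests on those libraries. For the 18 rows with an overlap r was -0.704 (exact permutation p = 0.0473, adjusted p = 0.0946) and rho -0.452 (exact permutation p = 0.267, adjusted p = 0.267), and r was 0.328 without the same pair. Its part in the low Parp1 and Topbp1 values of EZM8266 replicate 2 was not tested. The 4 groups overlapped in this share.

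Further genes of the same pathways, 123 in 4 lists, gave the same count. Among other homologous recombination and Fanconi genes 12 own rows and 9 opposite rows were tested, among fork and checkpoint genes 9 and 9, among end joining and break signalling genes 6 and 5, and among excision and mismatch repair genes 12 and 16. In every list, reading and comparison 0 rows were called higher and 0 lower at an adjusted p under 0.05. Among all rows tested the calls ran from 0% to 0.658% by comparison. The nearest to a call was the Parp9 row, on the strand of Dtx3l, its head-to-head partner, at 0.56 ± 0.17 (SE) over both backgrounds with EZM8266 (unadjusted edgeR p of 0.00692, adjusted p of 0.332). The Pcna row, of the sliding clamp, had -0.70 ± 0.25 in olaparib against DMSO (unadjusted edgeR p of 0.0156, adjusted p of 0.999), and Gm17130, on the strand of Babam2, a BRCA1-A complex subunit, 0.27 ± 0.09 over both backgrounds with EZM8266 (unadjusted edgeR p of 0.0099, adjusted p of 0.4). The Tnks2 row differed more than the Pcna row in olaparib against DMSO, at -1.55 ± 0.48 (unadjusted edgeR p of 0.00713, adjusted p of 0.999). The rows named here were chosen after their values were seen, and not every row with an unadjusted p under 0.05 is named.

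Promoter sequence was not used in the choice of rows. In RefSeq windows of 250 bases before to 50 after the start (GRCm38.p6), matched for 47 of 58 members, the E2F-type words TTTCCCGC, TTTGGCGC, TTTCGCGC or TTTGCCGC on either strand occurred in 8 windows (17%), against 744 of 32851 windows in the whole table (2.27%). The 8 were Brca2, Bard1, Rad51c, Chek2, Fancg, Xrcc6, Topbp1 and Ezh2. The members' windows held a median of 21 CG dinucleotides, against 7 over all windows. A match is a description of letters and no site of binding.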

How the data were processed

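The authors aligned reads to mm10 with HISAT2 2.1.0 and counted them with featureCounts of Subread 1.6.2, per the submitters' processing notes. The deposited counts are whole fragments per gene over exons, with strand setting 1 and multi-overlapping fragments counted in each row, per the file headers. Exon positions were taken from the table. Symbols came from GENCODE M21 by gene identifier, for 54079 of 54146 rows. Opposite rows share at least 50 exon bases with a member. Counts were tested with edgeR 4.0.16 in R 4.3.3 (TMM scaling, filterByExpr with a minimum of 10 counts, quasi-likelihood F test, 1 mean per group over 8 libraries, p-values adjusted over 6379 rows). The code was run on simulated counts with changes planted only in rows of higher counts and with 1 fixed spread. That run gives no measure of what could be detected in the low rows here. DESeq2 1.42.0, other filters and scalings, a replicate block and left-out libraries were alternatives. Named rows are Parp1, Parp2, Brca1, Brca2, the 10 highest rows of each reading, and per comparison called rows and up to 3 further rows with an unadjusted p under 0.05. Other rows were named by role. The members and lists were chosen with earlier results of these data known.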

Additional observations from a re-analysis of the deposited data

How the results depend on the processing

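Calls among member and opposite rows were 0 in all 141 pairings of a comparison with an alternative setting. Of these pairings 117 were planned and the others chosen after seeing the data, with 40 to 71 such rows tested. Most fits gave several comparisons, so there were fewer fits than pairings. The smallest edgeR adjusted p was 0.111 in the planned fits (Xrcc6 row, EZM8266 against DMSO, without EZM8266 replicate 1) and 0.106 in the added ones. The 123 alternative values of the named fold changes kept their sign and stayed uncalled. The number of rows opposite a member was 24 with 1 shared base and 15 with 200, and 38 member rows had a sum of at least 30. Of the named group levels, 26 were marked as moved and 70 as the same in CPM not scaled by TMM. Over all rows the calls ranged from 3 to 84 for EZM8266 against DMSO, 5 to 73 for the combination against DMSO, 4 to 47 for the combination against olaparib and 16 to 133 for EZM8266 over both backgrounds. In the comparisons with 0 calls they reached 8 (olaparib against DMSO), 12 (combination against EZM8266), 9 (olaparib over both backgrounds) and 7 (interaction), each with no filter on low counts. With the replicate number as a block, 0 member rows and 10, 15, 5 and 39 of all rows were called in the first 4. The labels do not say that a number marks a shared batch. Same-numbered libraries had correlations of deviations from 0.212 to 0.287 among olaparib, EZM8266 and the combination and from -0.305 to -0.143 with DMSO, so pairing by number is unsettled. Crossing the DMSO numbers, chosen after seeing the data, gave 84, 73, 47 and 133 calls and 0 member rows. Fits of only 2 groups were not run for the main effects and the interaction, which need all 4. Low counts limit what can be seen: 24 kept member rows did not pass the filter.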
